A study of Mus musculus with 9 samples.

Results

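Among the genes that carry no KEGG pathway, 59 were much lower in RAW264.7 cells after RANKL and had nearly the same mean level whether or not uridine (UD) was added. They were chosen from the 56691 genes of the deposited expression table by the group means of FPKM, which is the read count scaled to the exon length of the gene and to the total count of the library, with 0.1 added to each mean. A gene was kept when its control mean was at least 3, its RANKL mean at most 0.33 of the control mean and its RANKL + UD mean 0.8 to 1.25 times the RANKL mean. Of 40611 genes without a KEGG pathway, 4731 had the control level, 153 of these also had the RANKL ratio and 66 also had the UD ratio. Then 7 genes were set aside by name, namely Adgre1 and symbols beginning with Mir, Snor, Ifi, Gbp or Slfn. Of the 59 genes, 19 have a KEGG orthology number without a pathway and 45 have a Gene Ontology (GO) term.

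RNA was sequenced from RAW264.7, an established mouse macrophage line that forms multinucleated osteoclasts when given RANKL. All 9 libraries came from this line after 3 days of culture, with 3 libraries for untreated control cells, 3 for cells given RANKL and 3 for cells given RANKL together with UD. The labels name no other agent, genotype or clone, and they call the libraries of a group biological replicates without saying how the cultures were separated. Total counts were 15951800 to 19746862 per library. The osteoclast markers summed to 57.6 to 60.3 FPKM in control, 2715 to 2920 in RANKL and 1724 to 1761 in RANKL + UD libraries, and the macrophage markers to 9345 to 9935, 2494 to 2741 and 2176 to 2309. Most of the macrophage sum was Lyz2, with means of 7999.7 FPKM in control, 1431 in RANKL and 1285 in RANKL + UD, while Cd68 was higher with RANKL (549, 782 and 643 FPKM). Fibroblast, T cell and B cell markers each summed to at most 1.21 FPKM in any library.

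RANKL is the cytokine that turns macrophage precursors into bone-resorbing osteoclasts. It binds its receptor RANK, engages NF-kappaB and AP-1, and leads to the transcription factor NFATc1, which switches on genes for bone resorption. Macrophages on this path are known to give up part of the equipment of innate immune cells, such as surface receptors and sensors of microbes, and transcription factors of the macrophage programme are repressed along the way. Uridine is a pyrimidine nucleoside that cells take up and use for RNA, DNA and sugar-nucleotide synthesis.

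The name given to the group was only partly borne out by its values. "Lost" overstates the RANKL levels, since the 59 genes kept 4.54% to 32.6% of the control mean, with a median of 21.2%. "Unaffected by UD" describes the ratio of 2 means and not an equivalence. By edgeR's fit the 95% interval of the UD difference lay wholly inside the ratio limits for 10 genes and reached outside them for 49. In 47 of the 59 the interval contained 0, which is no difference.

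Promoter sequences were matched for 37 of the 59 genes, from RefSeq with build GRCm38.p6, as 250 bases before to 50 bases after the start of the gene. Motifs of 5 factors that act in macrophages were searched on both strands, and a gene was counted if any of its promoters held a match. The most frequent was the interferon response element in the short form GAAANNGAA, found in 5 of the 37 genes (13.5%). It was found in 9.76% of all 27025 genes with a promoter and 7.71% of genes without a pathway at the same control level. At the same RANKL limit the share was higher in the other sets. It was 18.8% where the UD ratio lay above the window (6 genes) and 18.2% below it (2 genes). Among genes with a pathway that met every other limit it was 23.1% (12 genes). The promoters of these 5 genes are shown with the matched letters in capitals, read 5′ to 3′ in the direction of the gene. In Cytip the capitals also mark 1 C/EBP match, which is the last of its 3 runs.
Lgals9, chr11:78984875-78985174, minus strand: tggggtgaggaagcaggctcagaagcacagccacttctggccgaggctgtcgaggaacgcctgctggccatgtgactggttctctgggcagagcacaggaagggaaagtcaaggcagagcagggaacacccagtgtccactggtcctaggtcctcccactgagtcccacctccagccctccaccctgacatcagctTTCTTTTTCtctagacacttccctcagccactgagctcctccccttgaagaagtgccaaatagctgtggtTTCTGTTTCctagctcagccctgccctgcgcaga
Cd300c, chr11:114960458-114960757, minus strand: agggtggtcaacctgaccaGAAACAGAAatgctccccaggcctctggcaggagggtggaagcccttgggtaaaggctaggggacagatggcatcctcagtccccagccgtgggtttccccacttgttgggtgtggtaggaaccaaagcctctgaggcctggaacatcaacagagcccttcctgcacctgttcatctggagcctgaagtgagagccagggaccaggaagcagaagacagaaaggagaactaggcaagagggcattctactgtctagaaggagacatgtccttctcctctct
Rubcnl, chr14:75015777-75016076, plus strand: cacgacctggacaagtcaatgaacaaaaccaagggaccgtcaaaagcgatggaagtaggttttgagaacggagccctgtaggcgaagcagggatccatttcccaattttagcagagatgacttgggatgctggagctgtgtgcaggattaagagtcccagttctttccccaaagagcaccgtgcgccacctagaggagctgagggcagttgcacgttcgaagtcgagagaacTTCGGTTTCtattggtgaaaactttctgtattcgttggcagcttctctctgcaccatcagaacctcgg
Ldlrad3, chr2:102186411-102186710, minus strand: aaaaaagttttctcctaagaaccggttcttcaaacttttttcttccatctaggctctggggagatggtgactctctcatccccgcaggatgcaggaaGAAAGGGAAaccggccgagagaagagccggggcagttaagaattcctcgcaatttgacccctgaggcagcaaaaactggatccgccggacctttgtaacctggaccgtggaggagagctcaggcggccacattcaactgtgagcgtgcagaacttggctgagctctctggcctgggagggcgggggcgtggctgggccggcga
Cytip, chr2:58160073-58160372, minus strand: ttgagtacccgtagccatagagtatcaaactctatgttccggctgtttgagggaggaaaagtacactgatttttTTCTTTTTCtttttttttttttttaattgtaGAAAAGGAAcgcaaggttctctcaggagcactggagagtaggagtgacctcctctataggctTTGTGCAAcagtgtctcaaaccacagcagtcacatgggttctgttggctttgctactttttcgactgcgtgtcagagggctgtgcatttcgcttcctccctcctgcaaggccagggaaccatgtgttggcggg

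Counted from 1 at the first base of the gene, the interferon-type matches began at -54 and 17 in Lgals9, -231 in Cd300c, -18 in Rubcnl, -153 in Ldlrad3, and -176 and -145 in Cytip. The core of PU.1, the factor that defines the myeloid lineage, was searched as GAGGAAGT and found in 3 genes (8.11%, against 3.69% of all). At the same RANKL limit the share was 3.1% with the UD ratio above the window and 0% below it. It was 9.62% in genes with a pathway that met every other limit. Of the 3 matches, the 2 shown lie far from the start in Tnip3 and next to it in Fgd2. The other match was in Lrrc8c at -236.
Tnip3, chr6:65590148-65590447, plus strand, match at -166: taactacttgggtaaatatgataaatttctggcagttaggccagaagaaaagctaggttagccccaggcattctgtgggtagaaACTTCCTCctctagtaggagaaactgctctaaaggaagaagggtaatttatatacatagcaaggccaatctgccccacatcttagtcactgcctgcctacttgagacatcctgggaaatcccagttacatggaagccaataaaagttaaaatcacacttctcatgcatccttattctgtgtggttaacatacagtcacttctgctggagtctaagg
Fgd2, chr17:29360664-29360963, plus strand, match at 2: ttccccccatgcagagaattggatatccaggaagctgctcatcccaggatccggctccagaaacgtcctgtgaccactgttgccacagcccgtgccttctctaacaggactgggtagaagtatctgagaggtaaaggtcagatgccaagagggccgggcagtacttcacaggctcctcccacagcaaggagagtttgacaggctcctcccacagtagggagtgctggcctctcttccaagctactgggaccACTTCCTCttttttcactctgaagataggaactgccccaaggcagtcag

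The C/EBP form TTGCNNAA was present in 3 genes (8.11%, against 12.2% of all) and the AP-1 form TGANTCA in 3 (8.11%, against 8.97%). Genes without a pathway at the same control level had 9.23% and 5.40%. At the same RANKL limit, C/EBP was at 25% with the UD ratio above the window and 18.2% below it. AP-1 was at 3.1% and 0% there. In genes with a pathway that met every other limit the shares were 17.3% and 15.4%. The Blimp-1 form AAGTGAAA, for a repressor active in osteoclasts, was in none of the 37 and in 1.91% of all genes with a promoter. Each motif was counted by itself, so letters shared by overlapping motifs count for both. For CpG and GC content, each gene was given the highest value among its promoters. Over the 37 genes the median observed to expected CpG ratio was 0.544 and the median GC content 56.3%. Genes without a pathway at the same control level had medians of 0.833 and 62.7%. Genes with a pathway that met every other limit had a median CpG ratio of 0.329. A match describes letters in this window and was not tested as a binding site.

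Control means of the 59 genes ran from 2.92 FPKM for Trim16 to 680.1 FPKM for Serinc3, with a median of 7.69. RANKL means ran from 0.127 to 171.5 FPKM with a median of 1.58, and RANKL + UD means from 0.113 to 200.9 with a median of 1.72. As a fold on the scale of FPKM + 0.1, RANKL means were 3.07 to 22 times lower than control, with a median of 4.72. RANKL left 8 genes under 10% of their control mean, 30 between 10% and 25%, and 21 at 25% or more. The RANKL + UD mean was above the RANKL mean in 33 genes and below it in 26, and the ratio had a median of 1.06. Genes at large moved by nearly as much on this scale. With libraries scaled by total counts, as FPKM are, the median log2 difference with UD was 0.11 in the 59 genes. It was 0.09 over all 11995 genes tested. By edgeR's main fit the difference was above 0 in 31 of the 59 and below it in 28. In bulk RNA, fewer cells of a type and less RNA per cell cannot be told apart.

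**Figure D1:**
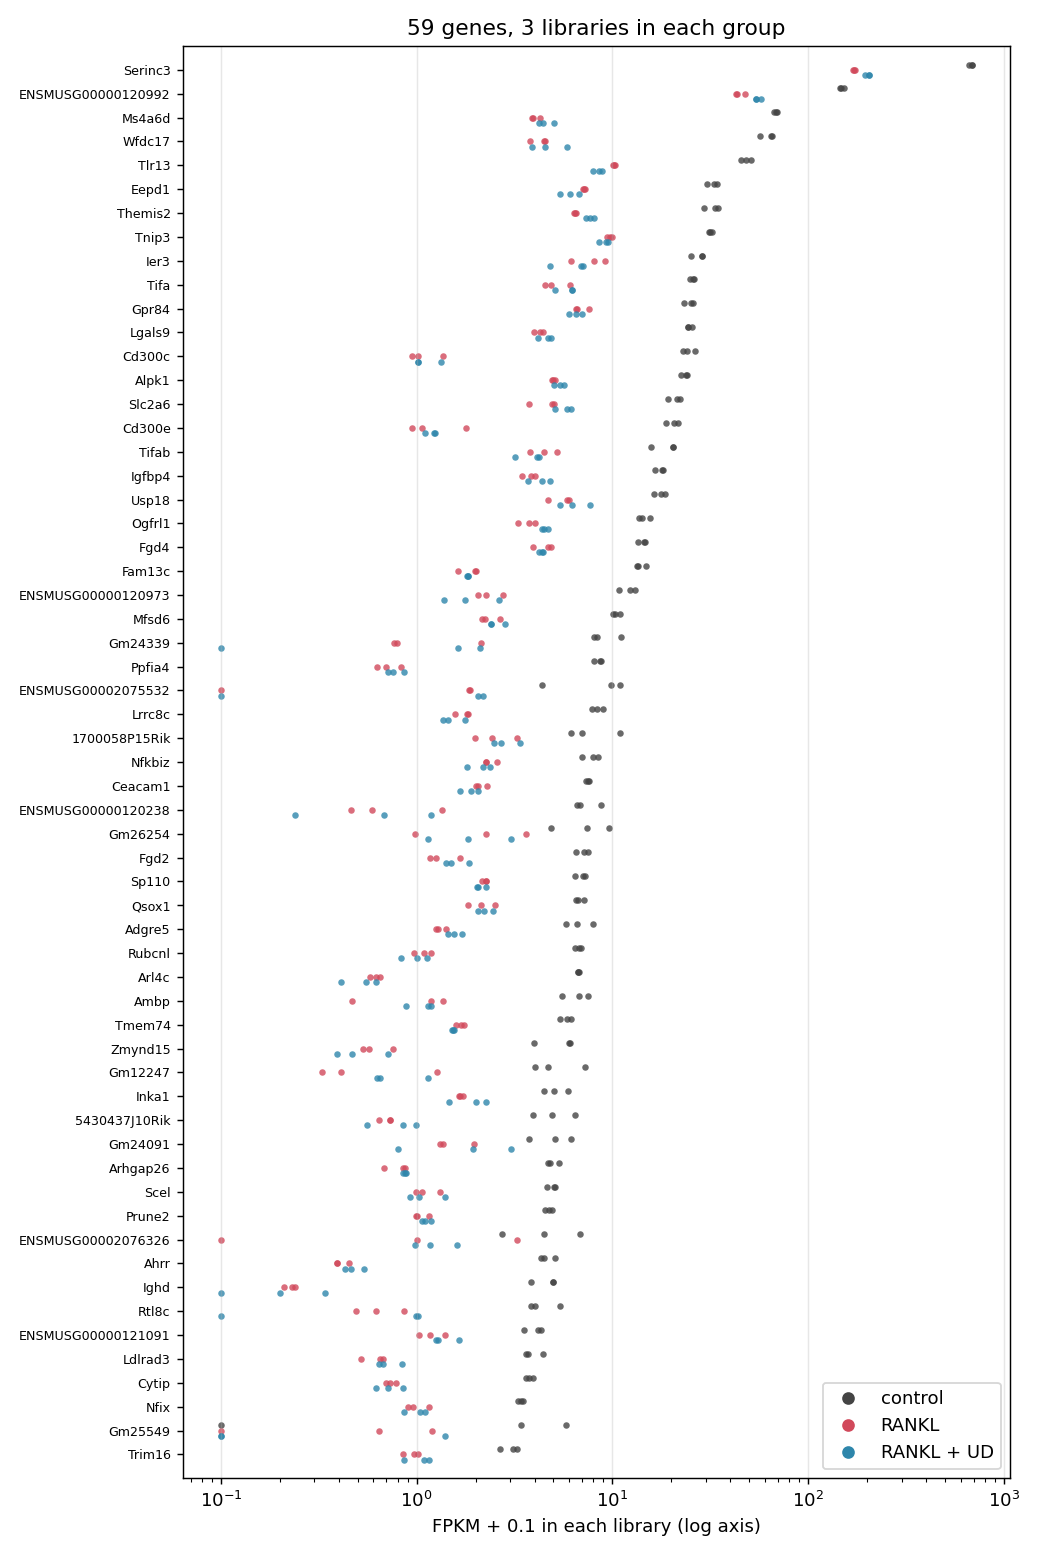
Deposited FPKM plus 0.1 of each of the 59 genes in each of the 9 libraries on a log axis, with 1 point per library and the groups set slightly apart within a row; genes are ordered by control mean. The control points stand to the right of the RANKL points in 57 genes, while the RANKL and RANKL + UD points of 50 genes overlap.

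The rule used all 3 groups, so the calls that follow are a description of the chosen genes. All 59 passed the filter on low values (3 or more libraries with FPKM 1 or above), and 10 of them reached that level in control libraries only. At an adjusted p under 0.05 in edgeR's quasi-likelihood test, 56 of the 59 were called lower in RANKL than in control, beside 30.2% of the 11995 genes tested, and 0 were called higher, beside 27.3%. The remaining 3, Gm24091, ENSMUSG00002076326 and Gm25549, are transcripts of 83 to 115 bases with few counts. All RANKL libraries lay below all control libraries in 57 genes, beside 38.8% of genes tested, and Gm25549 and ENSMUSG00002076326 were the ones that overlapped. RANKL + UD against control gave 56 called lower (beside 27.3%) and 0 higher (beside 26.7%). With scaling by total counts in place of TMM, 36.9% of all genes were lower and 21.5% higher in RANKL against control, and 56 of the 59 were lower there too.

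**Figure D2:**
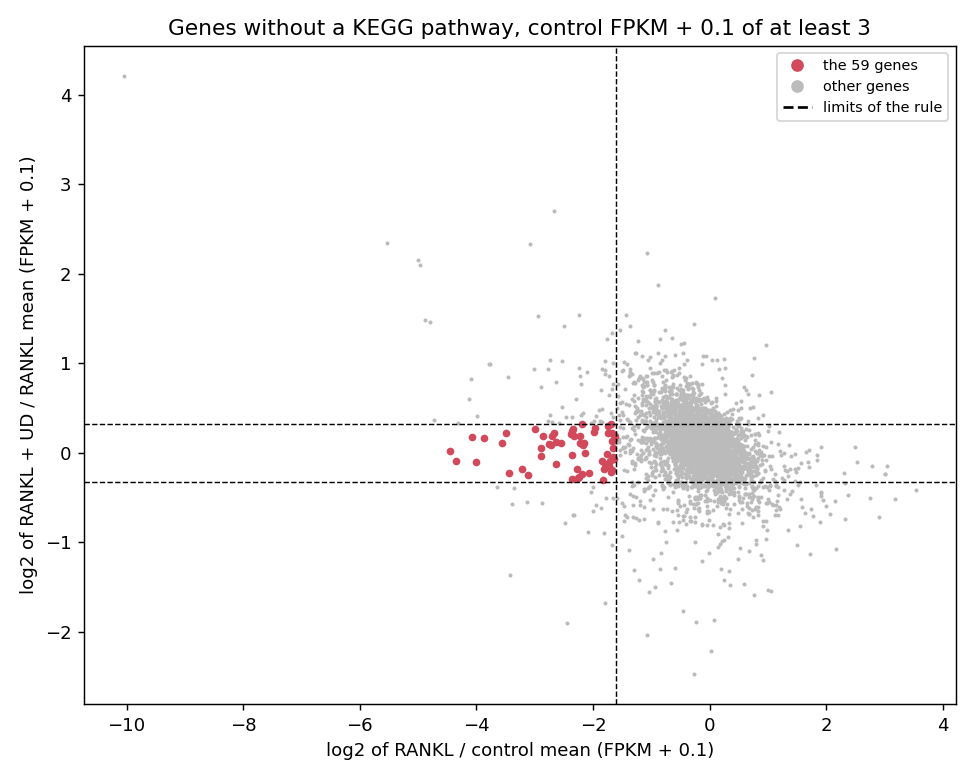
Each point is a gene without a KEGG pathway and with a control mean of FPKM + 0.1 of at least 3; the x axis is the log2 ratio of the RANKL to the control mean and the y axis the log2 ratio of the RANKL + UD to the RANKL mean. The 59 genes (red) fill the band between the limits at the left, and beside them at the same RANKL limit lie 60 genes above and 21 below the band.

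Genes grouped as receptors made up 8 of the 59 and kept 4.54% to 28.4% of their control level, with a median of 17.6%. Cd300c and Cd300e, paired immunoglobulin-like receptors of myeloid cells, were at the low end of this range. Cd300c was at 22.9, 26.2 and 23.8 FPKM in the control libraries, 0.85, 1.26 and 0.92 in RANKL and 1.23, 0.92 and 0.92 in RANKL + UD, which is 22 times lower with RANKL. Cd300e was at 18.7, 21.6 and 20.6 FPKM in control, 0.85, 1.69 and 0.97 in RANKL and 1.12, 1.00 and 1.14 in RANKL + UD, 16.1 times lower. Both were above 18 FPKM in every control library and under 1.8 FPKM in every other library. Ms4a6d, a four-span membrane protein of macrophages, had 69.2, 66.8 and 68.4 FPKM in control, 3.80, 4.15 and 3.85 in RANKL and 4.34, 4.91 and 4.10 in RANKL + UD, a level 16.9 times lower with RANKL. Tlr13, the endosomal receptor for bacterial ribosomal RNA, stood at 47.7, 45.2 and 51.2 FPKM in control and 10.1, 10.2 and 10 in RANKL, and its RANKL + UD values of 8.40, 8.76 and 7.88 were all lower again. Its RANKL libraries lay close together (10.1 ± 0.0874 FPKM, SD, n = 3), and the groups did not overlap.

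Gpr84, a G protein-coupled receptor for medium-chain fatty acids, had 23.1, 25.1 and 25.7 FPKM in control, 7.47, 6.51 and 6.44 in RANKL and 5.87, 6.43 and 6.88 in RANKL + UD. Ceacam1, an adhesion receptor with inhibitory signalling, had 7.53, 7.26 and 7.37 FPKM in control, 1.97, 2.19 and 1.92 in RANKL and 1.96, 1.80 and 1.57 in RANKL + UD. Both kept over 25% of the control mean with RANKL, and their RANKL and RANKL + UD libraries overlapped. Adgre5, the adhesion receptor also called CD97, was at 5.66, 6.46 and 7.89 FPKM in control and 1.19, 1.16 and 1.32 in RANKL, and its RANKL + UD values of 1.60, 1.35 and 1.45 were all higher than the RANKL values. The interval of that difference still contained 0 (log2 change 0.18, -0.15 to 0.52). Ldlrad3, a membrane protein with LDL receptor repeats, was the least abundant of these receptors at 3.80 ± 0.441 FPKM in control and 0.513 ± 0.0814 in RANKL (SD, n = 3).

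Carriers and other membrane proteins made up 5 genes, which kept 20.6% to 28.8%. Serinc3, a serine incorporator family protein that reduces retroviral infectivity, was the most abundant of the 59 genes. It had 690.0, 688 and 663 FPKM in control, 172, 170.0 and 173 in RANKL and 195, 204 and 203 in RANKL + UD, so that none of the groups overlapped. Slc2a6, a sugar transporter of lysosomes, was at 19.1, 21.2 and 22 FPKM in control, 3.65, 4.82 and 4.92 in RANKL and 4.97, 5.79 and 6.02 in RANKL + UD. Its RANKL + UD libraries were all above its RANKL libraries, and its ratio of 1.248 was the closest of all to the upper limit. Lrrc8c, a subunit of the volume-regulated anion channel, had 7.80, 8.24 and 8.80 FPKM in control, 1.72, 1.70 and 1.47 in RANKL and 1.27, 1.66 and 1.35 in RANKL + UD. Mfsd6, of the major facilitator superfamily, and Tmem74, a lysosomal membrane protein linked to autophagy, kept 22.5% and 28.8%.

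Innate sensing and NF-kappaB control were represented by 7 genes, which kept 19.7% to 30.6%. Alpk1, Tifa and Tifab belong to 1 pathway: the kinase Alpk1 binds a bacterial sugar and phosphorylates Tifa, which then assembles TRAF proteins, and Tifab is a relative that binds Tifa. Alpk1 was at 23.6, 24 and 22.2 FPKM in control, 4.87, 4.99 and 4.80 in RANKL and 5.31, 5.59 and 4.96 in RANKL + UD. Tifa was at 26.1, 25.6 and 24.7 FPKM in control, 4.76, 5.94 and 4.40 in RANKL and 4.99, 6.15 and 6.15 in RANKL + UD. Tifab was at 20.3, 20.3 and 15.6 FPKM in control, 4.38, 3.68 and 5.13 in RANKL and 4.13, 3.09 and 4.02 in RANKL + UD. All 3 kept between 20% and 24% with RANKL. Alpk1 and Tifa also lie 9.278 kb apart on chromosome 3, on opposite strands.

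Tnip3, a partner of the NF-kappaB inhibitor A20, had 31.5, 30.9 and 32 FPKM in control, 9.86, 9.27 and 9.57 in RANKL and 9.42, 8.41 and 9.17 in RANKL + UD. Nfkbiz, the nuclear inhibitor family member that shapes secondary NF-kappaB targets, was at 7.69 ± 0.751 FPKM in control and 2.26 ± 0.182 in RANKL (SD, n = 3). Ier3, an immediate early gene that responds to NF-kappaB, had 28.7, 25 and 28.4 FPKM in control, 6.06, 7.91 and 9.03 in RANKL and 6.79, 4.72 and 7.01 in RANKL + UD. Its ratio of 0.808 was the closest of all to the lower limit, and its RANKL libraries spread by an SD of 1.5 FPKM. Themis2, which takes part in Toll-like receptor signalling, had 29.2, 34.7 and 33.4 FPKM in control and 6.25, 6.32 and 6.40 in RANKL, and all 3 RANKL + UD libraries, at 8.00, 7.57 and 7.22, were higher than those of RANKL.

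Interferon-linked genes were 2. Slfn4, Ifi204 and Ifi27l2a met every limit but had been set aside by symbol. Others were left out by the limits themselves. Parp14 and Samd9l had UD ratios above the window, at 1.33 and 1.84, and Oasl2 and Phf11d carry a KEGG pathway. Usp18, the protease that removes ISG15 from proteins, had 16.3, 18.4 and 17.6 FPKM in control, 5.75, 4.60 and 5.87 in RANKL and 7.57, 6.13 and 5.29 in RANKL + UD. Sp110, a nuclear body protein, had 6.37, 6.98 and 7.17 FPKM in control, 2.17, 2.06 and 2.17 in RANKL and 2.17, 1.93 and 1.96 in RANKL + UD. They kept 31.4% and 32.2%, near the limit of the rule.

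Secreted proteins numbered 5 and kept 6.84% to 31.7%. Wfdc17, a small protein with a WAP domain, was at 64.6, 64.9 and 56.8 FPKM in control, 4.38, 3.69 and 4.40 in RANKL and 5.73, 3.80 and 4.45 in RANKL + UD, 14.6 times lower with RANKL. Lgals9, a galectin, was at 24.1, 24.2 and 25.5 FPKM in control, 3.89, 4.19 and 4.32 in RANKL and 4.59, 4.73 and 4.09 in RANKL + UD. Igfbp4, which binds insulin-like growth factors, was at 17.9, 18.1 and 16.4 FPKM in control, 3.37, 3.75 and 3.93 in RANKL and 3.62, 4.29 and 4.71 in RANKL + UD. Each of these had RANKL and RANKL + UD libraries that overlapped. Qsox1, which forms disulfide bonds, was at 6.71 ± 0.338 FPKM in control and 2.06 ± 0.33 in RANKL. Ambp, the precursor of alpha-1-microglobulin and bikunin, was at 6.50 ± 1.01 and 0.903 ± 0.471 (SD, n = 3).

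Regulators of small GTPases and of the cytoskeleton were 7 genes, which kept 8.49% to 32.6%. Ppfia4, a liprin scaffold, had 8.62, 8.56 and 7.96 FPKM in control, 0.73, 0.60 and 0.53 in RANKL and 0.66, 0.61 and 0.76 in RANKL + UD. Arl4c, a small GTPase of the Arf family, had 6.56, 6.67 and 6.54 FPKM in control, 0.52, 0.55 and 0.48 in RANKL and 0.45, 0.52 and 0.31 in RANKL + UD. These were the lowest of the 7, at 8.49% and 9.22%. Fgd4 and Fgd2 are exchange factors for Cdc42. Fgd4 was at 14.3, 14.6 and 13.4 FPKM in control, 4.75, 4.58 and 3.84 in RANKL and 4.30, 4.14 and 4.29 in RANKL + UD. Fgd2 was at 6.39, 7.10 and 7.40 FPKM in control, 1.07, 1.57 and 1.16 in RANKL and 1.39, 1.32 and 1.75 in RANKL + UD. The former kept 31.6% and the latter 19.3%. Arhgap26, a GTPase-activating protein, had 4.58, 5.23 and 4.70 FPKM in control, 0.77, 0.75 and 0.58 in RANKL and 0.78, 0.75 and 0.77 in RANKL + UD. Cytip, a binding partner of cytohesin, and Inka1, an inhibitor of the kinase Pak4, kept 19.5% and 32.6%.

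Transcriptional regulators were 3. Ahrr, the repressor of the aryl hydrocarbon receptor, had 4.38, 4.22 and 4.97 FPKM in control, 0.29, 0.35 and 0.29 in RANKL and 0.44, 0.36 and 0.33 in RANKL + UD, and kept 8.87%. Nfix, a nuclear factor I protein, had 3.39, 3.19 and 3.33 FPKM in control, 0.86, 0.80 and 1.06 in RANKL and 1.00, 0.94 and 0.76 in RANKL + UD. Zmynd15, a zinc finger protein with a MYND domain, had 5.91, 5.96 and 3.88 FPKM in control, 0.43, 0.66 and 0.47 in RANKL and 0.37, 0.61 and 0.29 in RANKL + UD. Ahrr and Zmynd15 were under 1 FPKM in every library with RANKL. Zmynd15 and Nfix overlap genes on the opposite strand that were themselves lower with RANKL. Cxcl16 beside Zmynd15 had means of 41.2, 4.49 and 3.12 FPKM in control, RANKL and RANKL + UD, and Lyl1 beside Nfix had 32.3, 6.95 and 5.06. The library protocol marks strand, and whether the counting used it is not given in the sources used here.

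**Figure D3:**
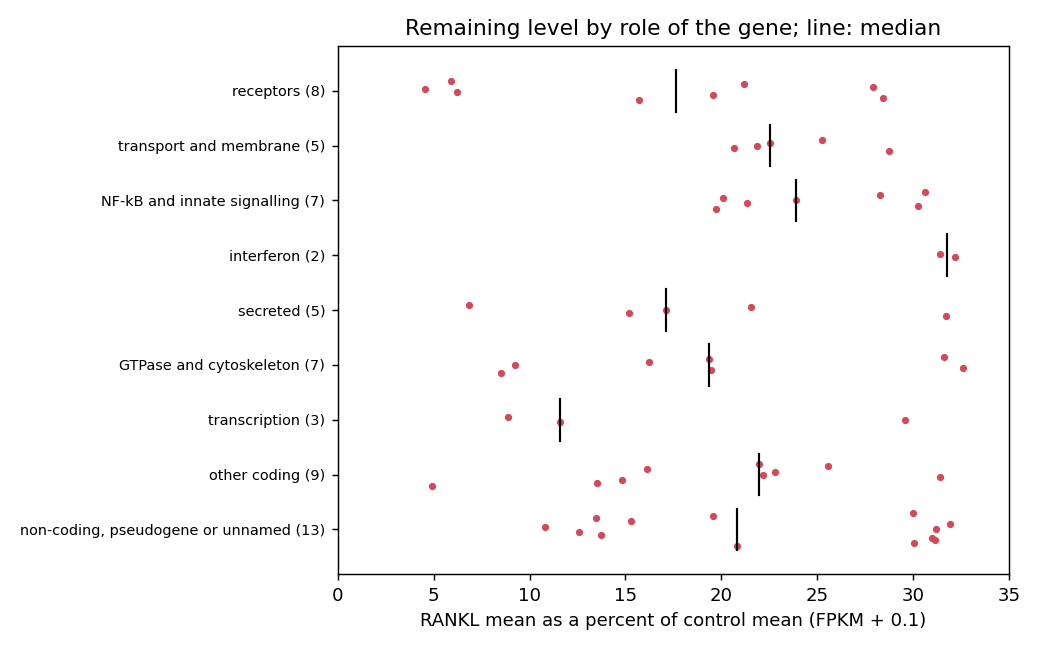
RANKL mean as a percent of the control mean, both as FPKM + 0.1, with 1 point per gene and a line at the median of each role; the role groups were written after the values were seen. The lowest points, under 10%, fall among receptors, secreted proteins, GTPase and cytoskeleton genes, transcription and other coding genes, while the 7 innate signalling genes lie between 19.7% and 30.6%.

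The other 9 coding genes kept 4.93% to 31.4%. Eepd1, a protein with an endonuclease, exonuclease and phosphatase domain, had 32.8, 30.4 and 34.2 FPKM in control, 7.04, 6.95 and 7.16 in RANKL and 5.98, 6.64 and 5.33 in RANKL + UD, with no overlap between any of the groups. Ogfrl1, a relative of the opioid growth factor receptor, had 13.7, 14 and 15.5 FPKM in control and 3.67, 3.94 and 3.21 in RANKL, and its RANKL + UD libraries, at 4.57, 4.35 and 4.29, were all higher than those of RANKL. Fam13c had 13.3, 13.4 and 14.7 FPKM in control, 1.90, 1.53 and 1.89 in RANKL and 1.70, 1.73 and 1.73 in RANKL + UD, and kept 13.5%. Rubcnl, which takes part in autophagosome maturation, kept 16.1%, and Scel, Prune2 and Trim16 kept 22.8%, 22.2% and 31.4%. Rtl8c, of a family derived from retrotransposons, rested on at most 6 counts in a RANKL library. Ighd, the constant region of immunoglobulin D, had 3.72, 4.88 and 4.88 FPKM in control, 0.13, 0.11 and 0.14 in RANKL and 0, 0.10 and 0.24 in RANKL + UD, and at most 5 counts in a RANKL library. The 3 B cell markers summed to 0.17 to 0.29 FPKM in control, 0 to 0.14 in RANKL and 0.04 to 0.08 in RANKL + UD. Of these, Ms4a1 was at 0 in all 9 libraries and Cd79a had means of 0.227, 0.0467 and 0.0633 FPKM, and the part of such cells in the Ighd values was not tested.

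Non-coding, pseudogene and unnamed entries were 13 and kept 10.8% to 31.9%. ENSMUSG00000120992, an unnamed transcript at chr17:35215654-35219393 in the coordinates of the table, was the second most abundant of the 59 genes. It had 152, 148 and 145 FPKM in control, 47.3, 43.2 and 42.8 in RANKL and 57.1, 53.7 and 53.8 in RANKL + UD, with no overlap between the groups. ENSMUSG00000120973 lies 46.701 kb away and had 12.3, 12.9 and 10.7 FPKM in control, 1.95, 2.65 and 2.17 in RANKL and 2.53, 1.28 and 1.67 in RANKL + UD. A further pair lies 3.45 kb apart on chromosome 11, the pseudogene Gm12247 and the unnamed ENSMUSG00000120238. They kept 12.6% and 10.8%, and both spread widely between libraries, as in Gm12247 at 4.61, 3.93 and 7.11 FPKM in control and 0.23, 0.31 and 1.17 in RANKL. The table's coordinates equal those of GRCm38 for 1435 of the 52073 gene identifiers shared with the GENCODE annotation of that build, so the build of the table was left unnamed.

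Of these entries, 6 are 76 to 118 bases long, where 1 count is worth a large FPKM. For 4 of them every RANKL library had at most 3 counts, so the fold was bounded by setting RANKL at 3 counts. This bound takes the control mean as exact and leaves out the sampling of few counts, so it is not a confidence limit. It was 4.45-fold for Gm24339, 4.71-fold for ENSMUSG00002075532, 2.63-fold for Gm24091 and 1.83-fold for Gm25549. For Gm24339 the 95% interval of edgeR's log2 change with RANKL was -4.41 to -1.23, which takes in smaller falls than its bound. By edgeR's fit the 95% interval of the log2 change with RANKL was -3.20 to -0.0016 for Gm24091 and -4.78 to 0.45 for Gm25549. Neither was called lower, so their folds are not firm. With these 4 genes at their bounds the median fold of the 59 was 4.64. Each of the 6 lies inside a longer expressed gene, and Gm25549, for example, lies inside Mapkapk2, which had 211 FPKM in control and 135 in RANKL. Across all 59 genes, 12 overlap another expressed gene, 5 on the same strand and 7 on the opposite one. Reads of Cd300, Ms4a, Ceacam, Wfdc and Rtl8 genes can also be shared between near-identical family members.

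With UD, 4 genes were called lower than with RANKL alone, beside 20.2% of genes tested, and 3 were called higher, beside 18.6%. The genes called lower were Tlr13 (log2 change -0.36, -0.50 to -0.23), Eepd1 (-0.32, -0.51 to -0.14), Tnip3 (-0.17, -0.29 to -0.06) and Lrrc8c (-0.29, -0.52 to -0.05), each with the 95% interval. The genes called higher were ENSMUSG00000120992 (0.22, 0.11 to 0.33), Ogfrl1 (0.20, 0.04 to 0.37) and Serinc3 (0.14, 0.05 to 0.23). Lrrc8c and Ogfrl1 were only just under the threshold of 0.05, with edgeR adjusted p = 0.0485 and 0.0492. All RANKL + UD libraries were above all RANKL libraries in 6 genes, beside 34.1% of genes tested, and below them in 3, beside 17.6%. The limits on the ratio keep these counts low by construction. Scaling by total counts, under which 14.2% of all genes were lower and 27.9% higher with UD, gave 2 lower and 5 higher among the 59, and DESeq2 gave 7 and 2.

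The intervals show how closely each gene was measured. Serinc3, with 13015 counts in its deepest RANKL library, had the narrowest interval, and those of Alpk1 (0.03, -0.11 to 0.16) and Prune2 (0.01, -0.17 to 0.19) also lay inside the ratio limits. Cd300c and Cd300e, the genes with very low RANKL levels described first, had -0.05, -0.60 to 0.49 and -0.19, -0.65 to 0.28, both of which reach past the limits. Over the 59 genes the width of the interval had a median of 0.64 on the log2 scale and ran from 0.18 to 7.49. Of the 59, 30 had over 100 counts in at least 1 RANKL library and 11 had 20 or fewer in each.

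**Figure D4:**
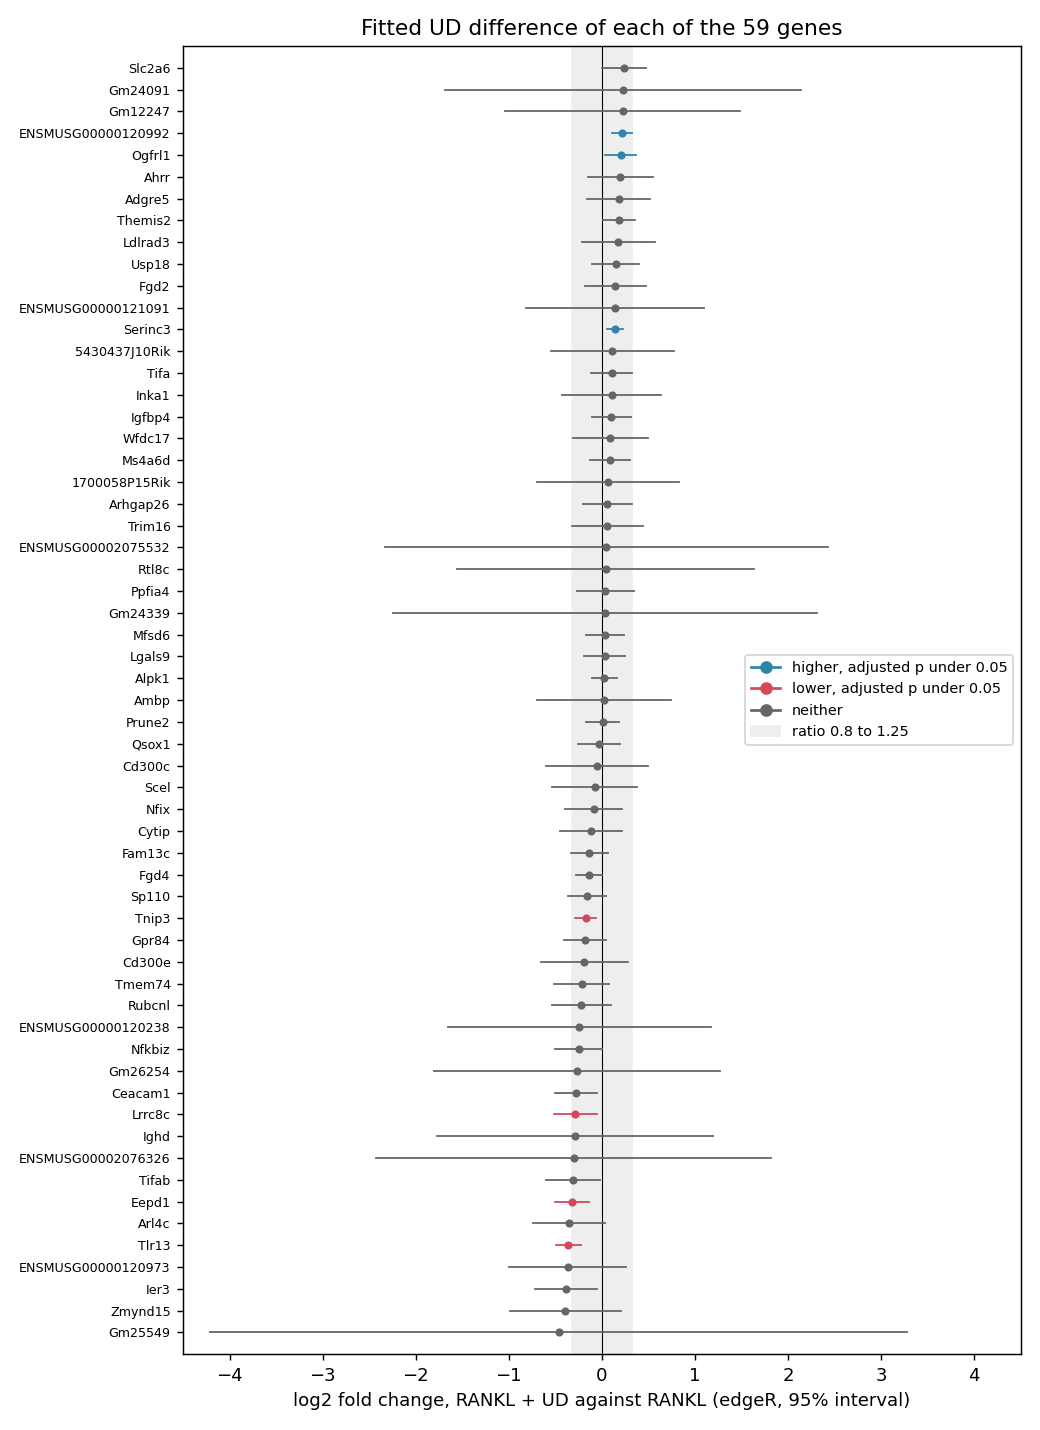
Log2 fold change of RANKL + UD against RANKL for each of the 59 genes from edgeR, with its 95% interval; the grey band marks the ratio limits of 0.8 to 1.25. The 4 genes in red and 3 in blue passed the test, 10 intervals lie wholly in the band, and the widest belong to short transcripts with few counts.

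Near the limits, the genes just inside and just outside differed little. Trim16 was inside on the control level at 3.02 and Tafa2 outside at 2.99, both as FPKM + 0.1. Inka1 was inside on the RANKL ratio at 0.326 and Tmem63a outside at 0.3302. On the UD ratio, Slc2a6 was inside at 1.248 and Ms4a6b outside at 1.257, and Ier3 was inside at 0.808 and Neurl3 outside at 0.768.

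To read the genes in libraries the choice had not used, the rule was applied to 2 replicate numbers and the chosen genes were read in the 3 libraries of the number left out. That choice gave 55, 56 and 66 genes for numbers 1, 2 and 3 left out. In the unused libraries 48, 47 and 51 of them again met the RANKL limit, with a median RANKL to control ratio of 0.21 each time. The UD ratio was again within its limits in 33, 38 and 34, and all limits were met by 27, 31 and 26. With 1 unused library per group these are counts with no test. The RANKL limit was thus met again by most chosen genes, and the UD limits by a smaller share.

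Among features the rule did not use, 17.8% of the 45 genes with a GO term carried immune response, against 3.77% of 4187 genes without a pathway at the same control level. The share was 18.4% in genes without a pathway whose UD ratio lay above the window, 14.3% in those below it and 30.7% in genes with a pathway that met every other limit. Plasma membrane stood at 24.4% against 13%, extracellular space at 11.1% against 2.65%, and nucleus at 28.9% against 36.1%. In the same 3 other sets, in the same order, plasma membrane was at 28.9%, 28.6% and 33.3%. Extracellular space was at 21.1%, 0% and 16% there, and nucleus at 15.8%, 0% and 20%. The immune response genes included Serinc3, Wfdc17, Tlr13, Tifa and Lgals9. Of the 59, 76.3% were protein coding by the GENCODE annotation, against 90.7%, and the median exonic length was 3211 bases against 4229. In the same 3 other sets, in the same order, 61.7%, 71.4% and 98.7% were protein coding. Their median exonic lengths were 2422.5, 2474 and 4390 bases. These shares and medians are given with no test.

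Other genes of the macrophage programme were read from lists of surface, regulatory and interferon genes. Of 25 macrophage surface genes tested, 19 were lower and 4 higher with RANKL, with a median log2 change of -1.38 against -0.03 over all genes, of which 30.2% were lower and 27.3% higher. Receptors such as Cx3cr1 (log2 change -2.93, SE 0.06, edgeR adjusted p = 2.89e-20), C5ar1 (-2.88, SE 0.10, adjusted p = 4.16e-16) and Tlr2 (-2.06, SE 0.05, adjusted p = 2.02e-18) were lower. The 4 higher were Axl (2.76, SE 0.11), Clec4n (2.16, SE 0.16), Cd68 (0.60, SE 0.06) and Cd180 (0.25, SE 0.05). Cd300a and Cd300lf, in the same receptor family as Cd300c and Cd300e, were lower by less. Their edgeR values were -0.49 (SE 0.05, adjusted p = 9.51e-08) and -1.68 (SE 0.19, adjusted p = 1.18e-07). UD against RANKL gave 2 higher and 11 lower of the 25, beside 18.6% higher and 20.2% lower of all genes. Those lower included Clec7a, a beta-glucan receptor (-1.36, SE 0.06, adjusted p = 7.43e-13).

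Of 6 tested repressors of osteoclast genes, 5 were lower and 1 higher with RANKL, and 4 were lower and 0 higher with UD than with RANKL alone. The shares over all genes tested, for these and the following counts, were 30.2% lower and 27.3% higher with RANKL, and 20.2% lower and 18.6% higher with UD. Irf8, a transcription factor of macrophages, had a log2 change of -2.03 with RANKL (SE 0.09, edgeR adjusted p = 2.62e-14) and -0.48 with UD (SE 0.10, adjusted p = 0.000508). Of 12 myeloid transcription factors tested, 8 were lower and 2 higher with RANKL, and 7 lower and 1 higher with UD. Of 23 interferon-stimulated genes, 23 were lower with RANKL, and with UD 8 were higher and 1 lower, with a median of 0.22. Ms4a6d and Usp18 are the only genes of the 59 in these lists. The rule chose both for low RANKL means, so their part of the counts with RANKL is not independent of it.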

How the data were processed

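RNA of 9 RAW264.7 libraries was compared, 3 each for control, RANKL and RANKL + UD, with groups taken from the labels. The deposited counts are whole reads per gene, not normalized by the authors. The authors' FPKM divide each count by exonic length and library total, and recomputing gave the deposited values for 100% of entries within 0.006 FPKM. The submitters' processing notes name mm10. The aligner, counting tool and strand setting are not given in the sources used here.

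The 59 genes were chosen on mean FPKM + 0.1. The genes, role groups and lists were chosen with earlier results of these data known. Counts were tested with edgeR 4.0.16 (quasi-likelihood, TMM, all 9 libraries, Benjamini-Hochberg adjustment) on the 11995 genes that reached FPKM 1 in 3 or more libraries. DESeq2 1.42.0, limma 3.58.1 and other scalings were alternatives. The edgeR fit was also run on counts simulated from the means and spread of these libraries, and the outcome is not reported here. Named are the genes highest in control, lowest with RANKL, at either end of the UD ratio, next to a limit, in a list or leading a GO group. Ldlrad3, Mfsd6, Lrrc8c, Tmem74, Nfkbiz, Ambp, Cytip, Fam13c, Scel, Prune2, Rtl8c, Gm24339, ENSMUSG00002075532 and ENSMUSG00002076326 were added after their values were seen. A count of at most 3 in every library of a group is treated as the floor. Intervals measure the spread between libraries. No batch is given in the labels. Single results for some listed genes are not reported here.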

Additional observations from a re-analysis of the deposited data

How the results depend on the processing

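The number of genes chosen followed the limits. It was 38 with a RANKL ratio of at most 0.25 and 144 at 0.5, 24 with a UD window of 9/10 to 10/9, and 109 or 24 with a control minimum of 1 or 10. TPM, which is on a larger scale than FPKM here, gave 116, of which 56 were among the 59. A pseudocount of 1 gave 61 with 40 shared, TMM-scaled FPKM 59 with 47 shared, and medians 63 with 49 shared. Leaving out 1 library gave 51 to 64, and 30 genes were chosen each time. A control mean of at least 20 counts, an alternative added after the data were seen, kept 53.

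The 56 genes lower in RANKL against control were 55 to 57 when 1 library was left out, and the 56 lower in RANKL + UD against control were 55 to 58. In RANKL + UD against RANKL, the 4 called lower became 2 with total counts, 2 with limma on log2(FPKM + 1), 2 with limma on log2(FPKM + 0.1) and 7 with DESeq2, and 3 to 5 when 1 library was left out. The 3 called higher became 5 with total counts and 1 to 3 when 1 library was left out, with 1 left without RANKL + UD replicate 2 or 3. Beyond what the total-count scaling itself changes, the cause was not tested. The median log2 difference of the 59 genes with UD, 0.02, was below 0 without RANKL replicate 1 (-0.07) or 3 (-0.03) and without RANKL + UD replicate 1 (-0.02) or 2 (-0.04), so its sign rests on single libraries.

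Libraries of the same replicate number deviated together only weakly, with correlations of -0.0194 to 0.0984 over 9 pairs. Pairs of different numbers had -0.102 to 0.0464. The highest same-number correlations lay above that range, so a weak pairing by number was not excluded. With the replicate number as a block, 6 genes were lower and 3 higher with UD.

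With 3 libraries a group, genes of few counts have wide intervals, and a comparison of 3 with 3 libraries cannot reach an exact two-sided permutation p under 0.1. Samples within a group come from 1 cell line, so p-values measure the spread between these cultures.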
